A study of Mus musculus with 7 samples.

Results

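The genes described here are 10 mouse genes of growth arrest, namely the cyclin-dependent kinase (CDK) inhibitors Cdkn1a, Cdkn1b, Cdkn1c and Cdkn2c, the p53 targets Mdm2, Ccng1 and Btg2, and the stress genes Gadd45a, Gadd45b and Gadd45g. They were picked by symbol from a liver table of 23594 genes, and all 10 were found. The livers came from 3 TgL and 4 TgLC mice and were sequenced as bulk RNA. TgL mice (LIF-tg flox/+) carry Lif, the gene of the cytokine leukemia inhibitory factor, together with eGFP behind a STOP cassette and the CAG promoter in Rosa26, and they have no Cre. TgLC mice carry the same allele and R26-CreERT2, a Cre that tamoxifen (TAM) activates. Every mouse, control or not, was a young adult given TAM once into the peritoneum, at 32 µg per g in females and 64 µg per g in males. Both sexes were used, and the sex of each mouse is not given in the labels used here.

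Rosa26 is active in nearly all tissues, so in TgLC mice activation of Lif is not limited to the liver. Because no control carries CreERT2, what active Cre does and what LIF does cannot be told apart in this design. The study also reports that TgLC mice ate less and lost weight after TAM. What reduced food intake does to these genes was not tested. Values are normalized counts, that is, reads per gene divided by a size factor for each mouse. A gene is said to have risen or fallen when its adjusted p was under 0.05 in limma on log2(normalized count + 1), with Benjamini-Hochberg adjustment over all 13145 genes that averaged 10 or more normalized counts. Log2 fold changes are TgLC minus TgL on that scale and are followed by their standard error (SE).

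CDK inhibitors bind CDKs, alone or in complex with a cyclin, and hold the cell in G1. The p53 protein, stabilized by DNA damage and other stress, switches on Cdkn1a, whose product p21 is the best known of these inhibitors, and also its own antagonist Mdm2 together with Ccng1, Btg2 and Gadd45a. The adult liver is a resting tissue in which p21 is low and can be induced by damage, fasting or cytokines, in part without p53, and Gadd45 proteins act between such stress and the p38 and JNK kinases.

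Promoters were read from RefSeq (GRCm38.p6) as windows from 250 bases before to 50 bases after an annotated start, and 9 of the 10 genes, all but Cdkn1c, had 1 or 2 windows, 11 in all. The windows shown are those of the 4 genes with the p53 decamer, the 10-base sequence that p53 contacts. Of these genes Cdkn1a, Ccng1 and Gadd45a rose or fell between the groups and Mdm2 did not pass the test. The windows of Btg2 and Gadd45g, which also rose, hold no decamer. The decamer was searched on both strands, single matches were searched after the windows had been seen, and the matches are in capitals. The upstream Cdkn1a window lies at chr17:29090729-29091028 (plus strand), the Mdm2 window at chr10:117710709-117711008 (minus strand), the Ccng1 window at chr11:40755237-40755536 (minus strand) and the Gadd45a window at chr6:67037358-67037657 (minus strand).
Cdkn1a: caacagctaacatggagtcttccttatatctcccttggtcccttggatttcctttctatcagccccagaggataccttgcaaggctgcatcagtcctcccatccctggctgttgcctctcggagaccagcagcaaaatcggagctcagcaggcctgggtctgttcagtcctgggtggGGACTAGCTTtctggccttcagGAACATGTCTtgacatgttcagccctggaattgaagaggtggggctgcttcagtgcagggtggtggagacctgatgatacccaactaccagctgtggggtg
Mdm2: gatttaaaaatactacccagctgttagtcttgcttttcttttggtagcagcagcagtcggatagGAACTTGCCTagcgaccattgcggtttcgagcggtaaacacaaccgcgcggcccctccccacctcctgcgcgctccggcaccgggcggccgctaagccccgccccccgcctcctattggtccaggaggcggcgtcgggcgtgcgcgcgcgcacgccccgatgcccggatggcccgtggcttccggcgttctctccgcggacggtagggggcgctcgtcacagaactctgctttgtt
Ccng1: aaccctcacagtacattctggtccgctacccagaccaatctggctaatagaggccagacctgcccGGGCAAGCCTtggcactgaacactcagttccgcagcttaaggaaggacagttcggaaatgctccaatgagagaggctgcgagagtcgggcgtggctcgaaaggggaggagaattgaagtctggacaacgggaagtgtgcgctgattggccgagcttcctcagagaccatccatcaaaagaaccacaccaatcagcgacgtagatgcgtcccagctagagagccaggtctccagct
Gadd45a: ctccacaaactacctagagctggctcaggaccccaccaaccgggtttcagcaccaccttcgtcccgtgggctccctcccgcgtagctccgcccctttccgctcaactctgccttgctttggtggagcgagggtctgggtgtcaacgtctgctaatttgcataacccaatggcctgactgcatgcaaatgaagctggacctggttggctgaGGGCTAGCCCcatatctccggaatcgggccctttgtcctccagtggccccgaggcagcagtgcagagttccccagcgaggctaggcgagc
The upstream Cdkn1a window holds 2 decamers, GGACTAGCTT at -73 to -64 and GAACATGTCT at -51 to -42 from its start, and the other Cdkn1a window, 2790 bases downstream, holds none. A pair of decamers at most 13 bases apart is found in 0.0731% of the 32851 windows of all genes, and a single decamer is found in 8.36%. Mdm2 has GAACTTGCCT at -186 to -177, Ccng1 has GGGCAAGCCT at -185 to -176 and Gadd45a has GGGCTAGCCC at -40 to -31. The motif TTCNNNGAA, which STAT3 downstream of LIF can bind, was in 0 of the 11 windows and in 8.3% of all windows, and the FOXO motif GTAAACA was in the Mdm2 window only and in 3.65% of all windows. These matches are a description of the letters in the windows and do not locate binding.

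Of the 10 genes, all of which passed the filter on low values, 4 rose, 1 fell and 5 did not pass the test. The 4 that rose, Cdkn1a, Btg2, Gadd45a and Gadd45g, were 2.24 to 12.5 times as high in TgLC as in TgL livers, and Ccng1 was the gene that fell. Among all genes tested 31.2% passed, 16.2% with a rise and 15.0% with a fall, against which the 4 rises and the 1 fall in 10 genes are to be read. Each of the 4 rises was of at least 2-fold, and 7.53% of all genes tested both rose and reached that fold (14.2% in either direction). The groups did not overlap in 6 of the 10 genes, 5 with TgLC higher and 1 with TgLC lower, against 41.1% of all genes tested (21.1% higher, 19.9% lower). The median log2 fold change was 0.53 over the 10 genes and 0.0018 over all genes tested. In bulk tissue, a gene that is lower because fewer cells of a type are present and one that is lower because each cell holds less of its RNA cannot be told apart.

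**Figure D1:**
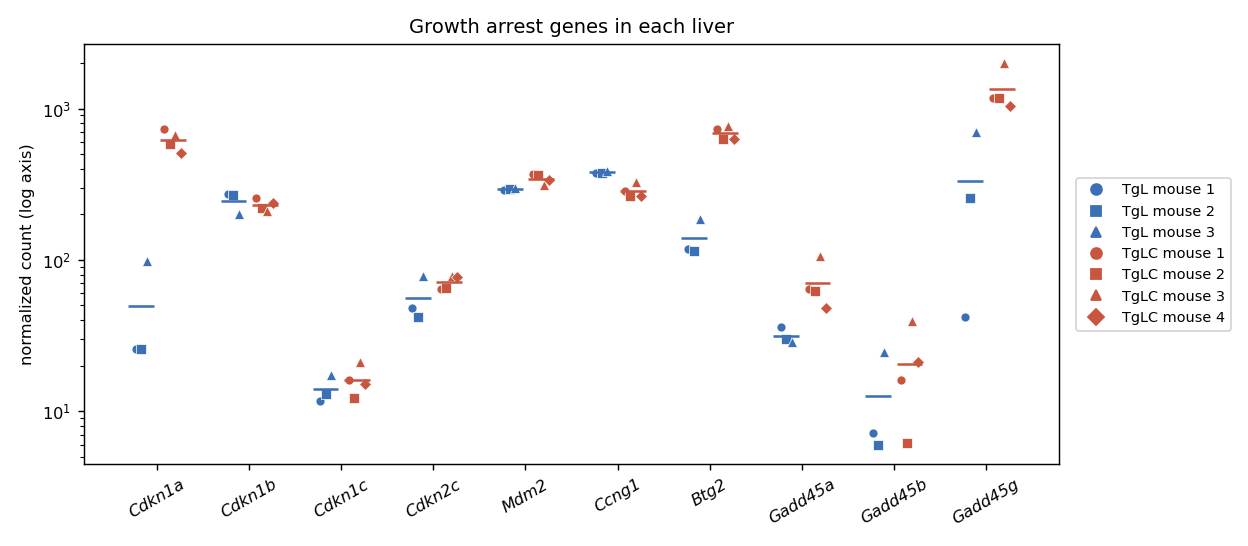
Normalized counts (log axis) of the 10 genes, 1 point per mouse (blue TgL, 3 mice; red TgLC, 4 mice) with a bar at the group mean. Cdkn1a, Btg2, Gadd45a and Gadd45g lie higher in every TgLC mouse than in every TgL mouse, Ccng1 lies lower, and TgL mouse 3 (blue triangle) is the highest control for 8 of the 10 genes.

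Cdkn1a (ENSMUSG00000023067), which encodes p21, was at 25.9, 25.9 and 97.9 normalized counts in TgL mice 1 to 3 and at 736, 581, 666 and 509 in TgLC mice 1 to 4. Every TgLC liver was far above every TgL liver, while TgL mouse 3 stood well above the other controls. The mean went from 49.9 ± 41.6 (SD, n = 3) to 623 ± 98.9 (SD, n = 4), which is 12.5-fold. By limma the log2 fold change was 3.90 (SE 0.42, 95% confidence interval 2.96 to 4.84, adjusted p = 0.000201), and 85 of the 13145 genes tested had a larger one. The fold was 24.1 without TgL mouse 3, so the size of the rise rests on that control. In each of 18 alternative analyses the change stayed past the threshold, at 3.33 to 4.61. The exons of Cdkn1a share 273 of 3553 bases with the opposite-strand gene AC167363.2, which was at 0 to 2.04 normalized counts in TgL and 3.01 to 7.0 in TgLC livers.

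The other 3 inhibitors among the 10 genes did not pass the test. Cdkn1b (ENSMUSG00000003031), the gene of p27, which holds resting cells in G1, was at 272, 267 and 200 in TgL and at 256, 221, 209 and 236 in TgLC mice. The groups overlapped, with TgL mouse 3 the lowest of all 7. Its log2 fold change was -0.08 (SE 0.15, interval -0.42 to 0.25, limma adjusted p = 0.700). That interval spans a modest fall and a slight rise, and its upper end lies far below the interval of Cdkn1a.

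Cdkn1c (ENSMUSG00000037664), which encodes p57 and is imprinted, was barely detected, at 11.6, 12.9 and 17.3 in TgL and 16.0, 12.3, 21.2 and 15 in TgLC mice. The groups overlapped at these few reads. The log2 fold change was 0.19 (SE 0.32, interval -0.52 to 0.90, limma adjusted p = 0.681) and turned to -0.11 in edgeR with library totals in place of size factors. Cdkn1c shares 625 of its 2039 exon bases with the opposite-strand gene Gm44732.

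Cdkn2c (ENSMUSG00000028551), the gene of p18, an inhibitor of CDK4 and CDK6, was at 48.3, 41.8 and 78.5 in TgL and at 64.0, 65.5, 77.9 and 77.1 in TgLC mice. TgL mouse 3 was the highest of all livers, and the other controls lay below every TgLC liver. With all mice the change was 0.38 on the log2 scale (SE 0.23, interval -0.14 to 0.90, limma adjusted p = 0.240). It was 0.65 without TgL mouse 3 (adjusted p = 0.0476), the only one of 18 alternatives in which Cdkn2c passed.

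Of the remaining inhibitor genes, Cdkn2d, which encodes p19 of the INK4 group, rose from 18.3 ± 10.1 (SD, n = 3) to 53.8 ± 6.18 (SD, n = 4) normalized counts (log2 fold change 1.68, limma adjusted p = 0.0115). In Cdkn2d it was TgL mouse 3 that had the lowest value, 7.14, against 26.8 and 20.9. Cdkn2a and Cdkn2b, the INK4 genes linked to senescence, were under the filter, at 0 to 4.09 and 0 to 8.16 normalized counts over the 7 livers, and were not tested. Of the 7 inhibitor genes 5 were tested, 2 of which passed, Cdkn1a and Cdkn2d, each higher. That is 40.0%, against 31.2% of all genes tested (16.2% with a rise).

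Levels of different genes were compared as normalized counts per kb of exon in GENCODE M21. Summed over the 7 inhibitor genes, the level was 111 ± 7.46 per kb (SD, n = 3) in TgL and 297 ± 29.3 per kb (SD, n = 4) in TgLC livers. Cdkn1a made up 6.64%, 6.94% and 23.0% of this sum in TgL mice 1 to 3 and 54.8% to 62.9% in TgLC mice. Cdkn1b, the leading inhibitor transcript in every TgL liver at 36.7% to 55.9%, made up 14.9% to 19.9% in TgLC livers although its own level did not pass the test. The leading inhibitor transcript was thus Cdkn1b in each control and Cdkn1a in each TgLC liver.

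**Figure D2:**
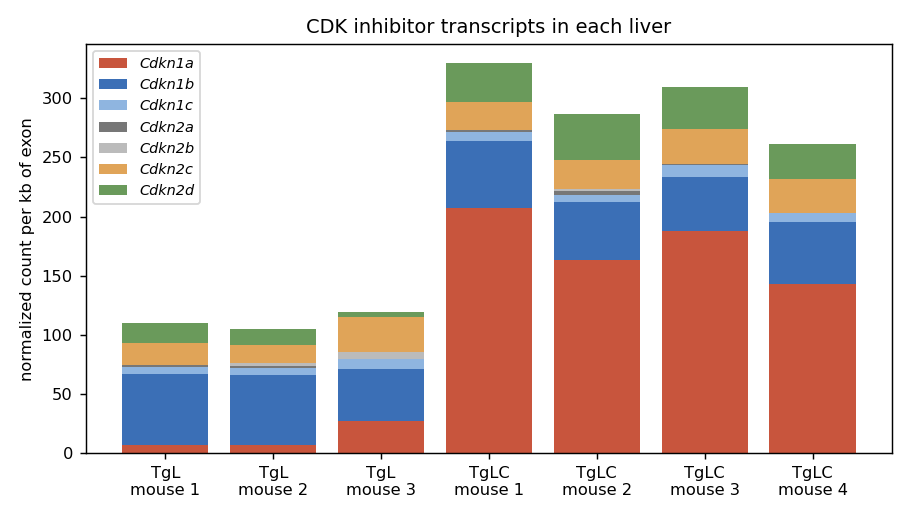
Normalized counts per kb of exon of the 7 CDK inhibitor genes, stacked, with 1 bar per liver. Cdkn1a (red) takes 6.64% to 23.0% of the bar in TgL and 54.8% to 62.9% in TgLC livers, while the height of the Cdkn1b part (dark blue) overlaps between the groups.

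Among the p53 targets, Btg2 (ENSMUSG00000020423), an antiproliferative gene whose protein also recruits the CCR4-NOT deadenylase to mRNA, was at 117, 114 and 186 normalized counts in TgL and at 736, 631, 766 and 632 in TgLC mice. TgL mouse 3 was again the highest control, and it remained far below the lowest TgLC liver. The mean rose 4.97-fold, from 139 ± 40.3 (SD, n = 3) to 691 ± 70.2 (SD, n = 4). Its log2 fold change was 2.34 (SE 0.18, interval 1.92 to 2.75, limma adjusted p = 3.76e-05), the smallest p of the 10 genes. It passed in all 18 alternatives, at 1.99 to 2.56.

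Ccng1 (ENSMUSG00000020326), the gene of cyclin G1, a partner of the phosphatase PP2A that acts on Mdm2, went the other way, with 376, 377 and 386 normalized counts in TgL and 287, 266, 327 and 265 in TgLC mice. All 4 TgLC livers lay below the tight group of controls. The mean was 380 ± 5.55 (SD, n = 3) against 286 ± 28.8 (SD, n = 4), 1.33-fold lower, with a log2 fold change of -0.41 (SE 0.12, interval -0.68 to -0.15, limma adjusted p = 0.0269). The call was lost without TgL mouse 1 (adjusted p = 0.0870), TgL mouse 2 (0.0818), TgL mouse 3 (0.0749), TgLC mouse 2 (0.0648) or TgLC mouse 4 (0.0599), while the log2 fold change kept between -0.48 and -0.38 in the 7 fits that each left out 1 mouse.

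Mdm2 (ENSMUSG00000020184), the ubiquitin ligase that degrades p53, was at 292, 295 and 300 in TgL and at 368, 361, 315 and 335 in TgLC mice. The groups did not overlap, but the gap from the highest control to TgLC mouse 3 was small. The means were 295 ± 4.17 (SD, n = 3) and 345 ± 24.7 (SD, n = 4), and the log2 fold change of 0.22 (SE 0.11, interval -0.03 to 0.47, limma adjusted p = 0.161) missed the threshold. Within the 4 mice whose titles share a number series (TgL mice 1 and 2, TgLC mice 1 and 2) it was 0.31 and passed (adjusted p = 0.0446), and in edgeR with library totals it turned to -0.09.

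**Figure D3:**
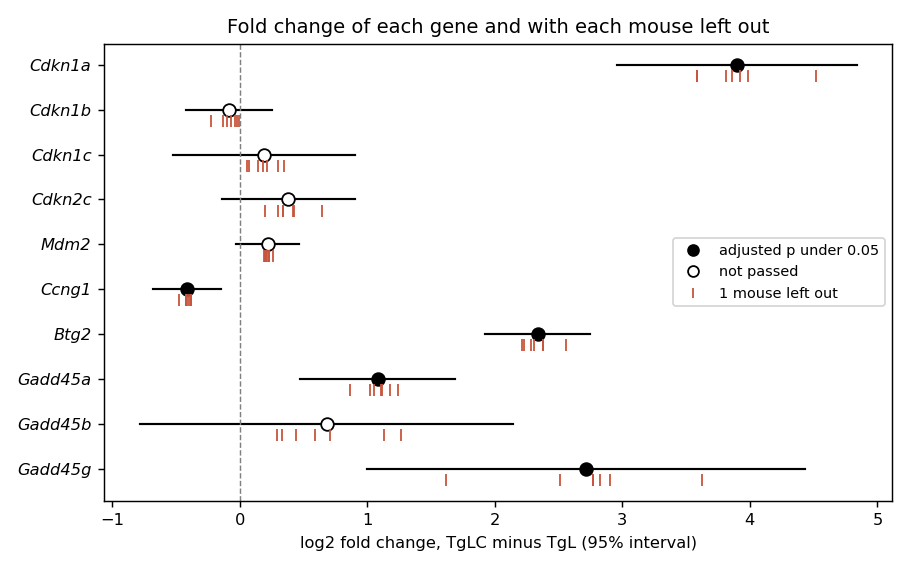
Log2 fold change (TgLC minus TgL, on the log2(normalized count + 1) scale) of each of the 10 genes with its 95% confidence interval from limma (filled points, adjusted p under 0.05), and red ticks below for the fits that each left out 1 mouse. The intervals of Cdkn1a, Btg2, Gadd45a and Gadd45g lie above 0 and that of Ccng1 below 0, and Gadd45g and Gadd45b have the widest intervals.

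Gadd45a (ENSMUSG00000036390), the p53-responsive member of the Gadd45 family, was at 35.8, 29.9 and 28.5 normalized counts in TgL and at 64.0, 62.4, 106 and 48.1 in TgLC mice. All TgLC livers were above all controls, and TgLC mouse 3 was the highest. The mean rose 2.24-fold, from 31.4 ± 3.85 (SD, n = 3) to 70.2 ± 25.1 (SD, n = 4). The log2 fold change was 1.08 (SE 0.27, interval 0.48 to 1.69, limma adjusted p = 0.0148), and the call was lost without TgL mouse 2 (adjusted p = 0.0549) or TgL mouse 3 (0.0514). The exons of Gadd45a share 337 of 1764 bases with the opposite-strand gene E230016M11Rik, which was at 20.6 to 39.8 normalized counts in TgL and 2.02 to 6.01 in TgLC livers. The strand setting of the counting is not given, so reads in the shared bases cannot be assigned with certainty.

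Gadd45b (ENSMUSG00000015312), an early-response member of the family, had few reads, with 7.15, 5.97 and 24.5 normalized counts in TgL and 16.0, 6.14, 39.5 and 21 in TgLC mice. The groups overlapped, and mouse 3 was the highest in both. The log2 fold change was 0.68 (SE 0.65, interval -0.78 to 2.14, limma adjusted p = 0.457), too wide to tell a rise from a fall. Without TgL mouse 3 the ratio of means went from 1.65 to 3.15, still without passing.

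Gadd45g (ENSMUSG00000021453), a cytokine-responsive gene whose protein can inhibit the cyclin B1-CDK1 complex, was at 42.0, 256 and 698 in TgL and at 1169, 1168, 1996 and 1043 in TgLC mice. The TgLC livers were all higher than the controls, but the controls spread widely and TgL mouse 3 came nearest to the TgLC range. The ratio of means was 4.05, from 332 ± 335 (SD, n = 3) to 1344 ± 439 (SD, n = 4), and it was 9.03 without TgL mouse 3. On the log2 scale, where the lowest control weighs more, the change was 2.72 (SE 0.76, interval 1.0 to 4.43, limma adjusted p = 0.0249). On recovered reads the gene missed the threshold in DESeq2, with a log2 fold change of 2.02 (adjusted p = 0.0539), and in edgeR with TMM (2.03, 0.0537), DESeq2 size factors (2.02, 0.0543) or library totals (1.68, 0.0795), and it passed in limma-voom (2.77, 0.0222). In limma it missed without TgL mouse 2 (0.0585) or TgLC mouse 3 (0.0518). Without TgL mouse 1, the lowest control, the log2 fold change was 1.62.

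Per kb of exon, Gadd45g made up most of the Gadd45 transcripts in every liver, with 59.1% in TgL mouse 1, 91.3% in TgL mouse 2, 95% in TgL mouse 3 and 95.2% to 96.2% in TgLC mice. Among all 10 genes it also had the highest mean level per kb in TgLC livers, 1146 ± 374 (SD, n = 4), followed by Btg2 at 252 ± 25.6, Cdkn1a at 175 ± 27.8, Ccng1 at 81.5 ± 8.19, Mdm2 at 67.8 ± 4.85 and Cdkn1b at 50.7 ± 4.42. The ranges of these 6 over the 4 mice did not overlap between neighbours. Below them Gadd45a, at 39.8 ± 14.2 per kb, reached into the ranges of Cdkn1b and of Cdkn2c (26.5 ± 2.76), and Gadd45b and Cdkn1c were lowest and overlapped. In TgL livers the highest mean was again that of Gadd45g (283 ± 285, SD, n = 3), whose range took in those of Ccng1, Mdm2, Cdkn1b and Btg2, and Cdkn1a was at 14.0 ± 11.7, between Gadd45a and Gadd45b.

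TgL mouse 3 was the highest control for 8 of the 10 genes and more than 2 times both other controls for 3 of them, Cdkn1a, Gadd45b and Gadd45g. Over all genes tested, the shares were 35.8% and 1.61%. In the TgLC group mouse 3 was the highest for 7 of the 10 genes, against 32.1% of all genes tested. TgL mouse 3 has a numbered liver title outside the number series that 4 other mice share. TgLC mice 3 and 4 have titles of another kind, which no TgL mouse has. The labels do not say what the series or the kinds of title stand for. In the 4 mice within the series, 5 of the 10 genes rose (Mdm2 besides the 4 above) and 1 fell, while over all genes tested 18.8% rose and 19.8% fell in that fit, more than with all 7 mice.

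The genes of the p53 pathway that were not chosen as members moved in both directions. Of 40 other p53 target genes 35 were tested, of which 12 rose and 4 fell, and the median was 0.17 on the log2 scale. Thus 45.7% passed, with more rises than falls, against 31.2% of all genes tested (16.2% with a rise, 15.0% with a fall). Gdf15, a stress hormone that lowers appetite, rose from 51.7 ± 50.4 (SD, n = 3) to 582 ± 223 (SD, n = 4) normalized counts, and Ier3, an early-response survival gene, rose from 7.65 ± 1.98 to 46.2 ± 8.30. Ephx1, the microsomal epoxide hydrolase, fell from 2432 ± 551 to 386 ± 145, and Sesn3, a sestrin that restrains mTORC1, fell from 591 ± 81.6 to 204 ± 31.6. The apoptosis genes Bax (log2 fold change 0.35, limma adjusted p = 0.161) and Bbc3 (-0.57, adjusted p = 0.155) did not pass. Fas, another apoptosis gene of the list, rose (1.07, limma adjusted p = 0.00221). Bax, Bbc3 and Fas are named here after their values were seen.

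**Figure D4:**
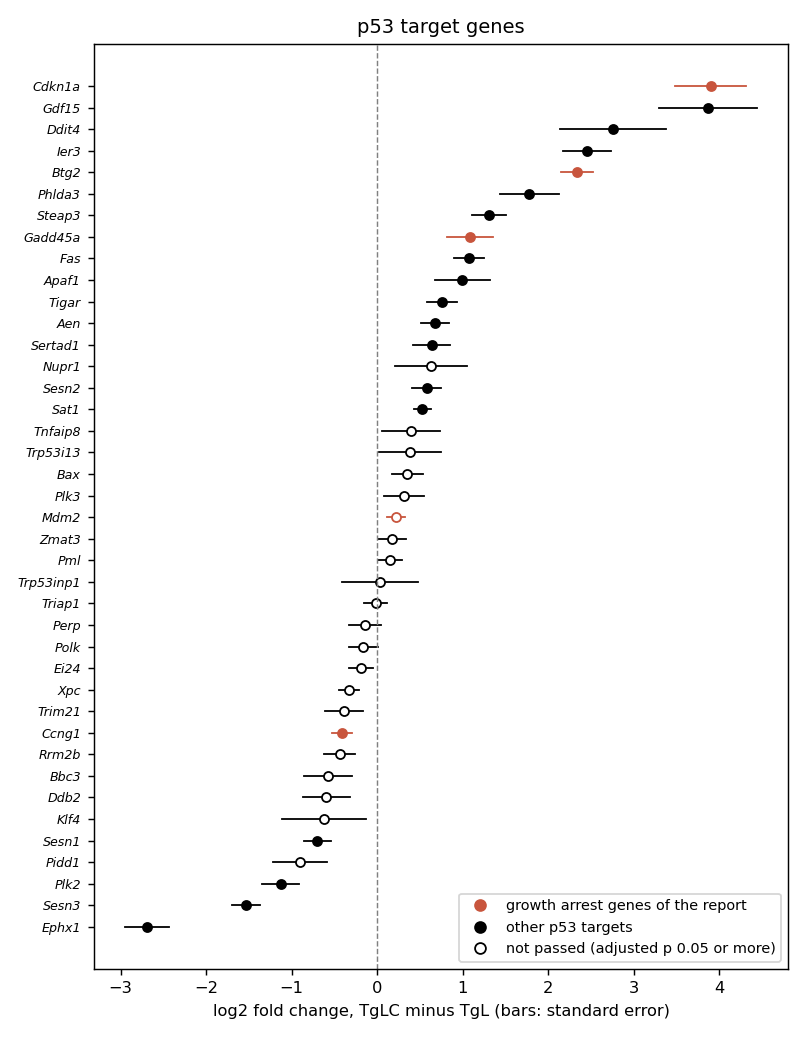
Log2 fold change (TgLC minus TgL) of the tested p53 target genes with the standard error as a bar, ordered by size, in red for genes among the 10 and in black for the 35 others, and open where the gene did not pass in limma. Of the 35 others 12 rose and 4 fell.

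Trp53 itself was at 180 ± 21.8 normalized counts (SD, n = 3) in TgL and 180 ± 40.5 (SD, n = 4) in TgLC livers, with a log2 fold change of -0.01 (SE 0.18, limma adjusted p = 0.964). These are mRNA levels, whereas p53 is set mainly by protein stability, which was not measured. Mdm4, the second inhibitor of p53, was at 670, 690 and 683 in TgL and 619, 631, 338 and 343 in TgLC mice, and TgLC mice 3 and 4 were low while TgLC mice 1 and 2 were near the controls (log2 fold change -0.56, adjusted p = 0.109). Of the 16 tested genes that make up p53 and its regulators 1 rose and 2 fell, with a median of 0.03. The kinases Hipk2 (-1.13) and Chek2 (-1.24) fell. Rpl5, a ribosomal protein that binds Mdm2, rose (0.73, limma adjusted p = 0.0476). It was at 1618 to 1719 in TgL and at 2009, 2247, 3020 and 4442 in TgLC mice 1 to 4, highest in TgLC mice 3 and 4. The list of 16 includes Mdm2, and 18.75% of it passed, against 31.2% of all genes tested.

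Among relatives of Btg2, Btg3 rose (log2 fold change 1.80, limma adjusted p = 0.00464) and Tob1, another antiproliferative gene of the family, fell (-0.88, adjusted p = 0.0322). Btg1 (0.51, limma adjusted p = 0.107) did not pass. Ccng2, the cyclin G2 gene and a relative of Ccng1, did not pass either (-0.62, limma adjusted p = 0.0766). Over the 11 tested genes of the BTG/TOB family and its CCR4-NOT partners 2 rose, Btg2 included, and 2 fell, the second being Cnot6l (-0.59), a deadenylase. Of the 5 genes of the cyclin G family and its partners 2 passed, each lower, with a median of -0.41. They were Ccng1 and Ppp2r5a (-1.0), a PP2A regulatory subunit. The shares passing were 36.4% for the BTG/TOB list and 40.0% for the cyclin G list, against 31.2% of all genes tested.

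Of 18 genes for CDKs, cyclins, pocket proteins, E2F factors and Pcna 3 passed in limma, each of them lower, and the median log2 fold change was 0.05 (at an unadjusted p under 0.05, 3 were higher and 4 lower). The 2 with the smallest p were Rbl2, the p130 protein that represses E2F targets in resting cells (-0.56), and Cdk2, the kinase that p21 inhibits (-0.56). Of 17 tested proliferation genes 2 passed, each lower (2 higher and 2 lower at an unadjusted p under 0.05). The 2 that passed, Tk1 (-2.05) and Rrm2 (-0.96), make deoxynucleotides, while the median was 0.03. So 11.8% of these genes and 16.7% of the 18 above passed, against 31.2% of all genes tested (15.0% with a fall). Of 9 tested genes for the turnover of p27 and p21 1 rose (Cul1, 0.83) and 2 fell, with a median of -0.20. The 2 that fell were Rnf123, a ligase for p27 (-0.58), and Cks2 (-0.57). In this list 33.3% passed, near the 31.2% of all genes tested.

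Among the 12 partners of Gadd45 proteins and kinases of the p38 and JNK pathways 3 rose and 3 fell, with a median log2 fold change of -0.06. Map2k4, which activates JNK and p38, rose (0.46, limma adjusted p = 0.00877), as did Tdg, a DNA glycosylase used in demethylation (0.64, adjusted p = 0.0307). Map2k6, an activator of p38, fell (-1.53, adjusted p = 0.0135), and so did Mapk9, the JNK2 gene (-0.55, adjusted p = 0.00815).

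The 5 genes whose log2 values followed those of Cdkn1a most closely over the 7 mice were Ube2j1 (Pearson r = 0.998), Tiparp (0.997), Zbtb7c (0.997), Btg2 (0.993) and Mt1 (0.992). The 7 points fall into the 2 genotype groups, so these values mostly describe a difference between groups, and they are a description only. All 5 were highest among the controls in TgL mouse 3, as Cdkn1a was. Mt1, a metallothionein, was at 1232, 759 and 2693 in TgL and 24294, 24905, 23855 and 20997 in TgLC mice.

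The reads counted to genes numbered 9367681 to 11030699 per TgL liver and 11325974 to 12448961 per TgLC liver, so the groups did not overlap in depth. Lif, the targeted gene, was at 0 to 1.99 normalized counts in TgL and 10 to 25 in TgLC livers, and transgene reads were not told apart from those of native Lif. The defining hepatocyte markers were abundant in all livers (9 of 10 had a value, 3 rose, 3 fell), and the summed list was at 1255953 to 1320919 in TgL and 1075780 to 1127667 in TgLC livers. Some markers of other cell types rose or fell as well, to be read against the 31.2% of all genes tested that passed. Of 6 tested neutrophil markers 4 passed, each higher (sum of the list of 10, 39.8 to 114 against 119 to 251), of 10 stellate cell and fibroblast markers 4 did so (3346 to 3795 against 3599 to 10647), and of 5 red cell markers 3 did so (1194 to 2165 against 1698 to 9327). Of 4 tested cholangiocyte markers 1 rose (list sum 393 to 499 against 647 to 1905). All 10 tested exocrine pancreas markers fell (534 to 936 against 2.02 to 5.0), and 10 of the 12 listed were at 0 in every TgLC liver. The part of these other cells in the levels of the 10 genes was not tested. Of 10 endothelial markers 2 rose and 1 fell, of 10 Kupffer cell and macrophage markers 1 passed, which fell, of 3 tested B and plasma cell markers 0 passed in limma (0 at an unadjusted p under 0.05), and no T and NK cell marker reached the filter.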

How the data were processed

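Liver RNA was sequenced by the study from 3 TgL and 4 TgLC mice. The deposited values are a normalized signal, counts per gene that the authors divided by 1 DESeq2 size factor per mouse. The submitters' processing notes name DESeq2 1.20.0, featureCounts 1.5.0-p3, HISAT2 2.0.5 and fastp. The build, strand setting and annotation were not given in the sources used here. GENCODE M21 names matched 22679 identifiers and left 915 without a symbol. In all 7 mice 100% of values were whole multiples of 1 read within 1e-06, and these recovered reads (9367681 to 12448961 per mouse) served for the count tests, in which DESeq2 called 4411 and edgeR with TMM 4208 genes (limma, 4104).

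Genes with a mean of at least 10 were tested with limma 3.58.1 (R 4.3.3) on log2(value + 1), with an intensity trend, genotype as the only term and Benjamini-Hochberg adjustment over 13145 genes. The fold changes understate changes of low genes. DESeq2 1.42.0, edgeR 4.0.16 (TMM, size factors or library totals) and limma-voom, other pseudocounts and filters, an adjusted p under 0.01, 4 mice of 1 title series and leaving out each mouse were alternatives. The fits were tested on simulated data. The members and lists were chosen with earlier results of these data known, and counts within a list carry no test of the list. The named genes are the 10 members, their family relatives, Trp53, Mdm4, the 5 genes most like Cdkn1a, and of each list up to 2 with a rise and 2 with a fall, by smallest adjusted p. A gene that this rule names is not reported here. Mice are numbered in accession order. In limma a p-value sets the group difference against the spread between these mice, drawn for each gene toward a trend over all genes tested.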

Additional observations from a re-analysis of the deposited data

Results flagged for a closer look

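Within the TgLC group of 4, Gadd45g was the only one of the 10 genes with a liver far from the others. TgLC mouse 3 was at 1996 normalized counts and the other TgLC mice at 1043 to 1169, so its gap to the nearest mouse was 0.868 of the range of the group, above Dixon's 95% limit. Without TgLC mouse 3 the log2 fold change of Gadd45g was 2.51 (limma adjusted p = 0.0518). Chance gives such a gap in about 1 of 20 groups, and each of the 10 genes was looked at in the TgLC livers. The TgL livers were not checked in this way.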

How the results depend on the processing

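Cdkn1a and Btg2 rose in all 18 alternatives. Ccng1 passed in 12, Gadd45a in 15 and Gadd45g in 11 of 18, with the sign kept. In edgeR with library totals, which moved the median of all genes to -0.30, 1177 genes were higher and 4275 lower (2179 and 1985 in edgeR with size factors, 2127 and 1977 in limma), Mdm2 (-0.090) and Cdkn1c (-0.11) reversed without passing, and the genes passing numbered 5 for CDK and cyclin partners, 6 for p53 and its regulators, 4 for the cyclin G family, 7 for BTG/TOB, 6 for turnover and 3 for the BCL2 family. At an adjusted p under 0.01, 2 of the 10 genes were higher and 0 lower, and 2191 of all genes passed (1138 higher, 1053 lower), and the lists had 1 (CDK inhibitors), 1 (CDK and cyclin partners), 1 (p53 and its regulators), 1 (cyclin G), 2 (Gadd45 partners), 3 (glucocorticoid), 1 (proliferation) and 3 (senescence). With a mean of at least 50, CDK inhibitors had 1, proliferation 1 and senescence 2. Proliferation had 1 with limma-voom and 1 without a filter. In the 4 mice of 1 title series, proliferation had 5 and the BCL2 family 2. The cause of these moves was not tested.

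Leaving out 1 mouse gave 2 to 4 of the 10 genes higher and 0 to 1 lower, and 2582 to 4112 genes in all (1368 to 2076 higher, 1214 to 2036 lower). The lists had 2 to 3 genes (CDK inhibitors), 1 to 3 (CDK and cyclin partners), 1 to 5 (p53 and its regulators), 12 to 16 (other p53 targets), 1 to 3 (cyclin G), 3 to 6 (BTG/TOB), 1 to 6 (Gadd45 partners), 2 to 4 (turnover), 6 to 7 (FOXO), 3 to 5 (glucocorticoid), 1 to 2 (proliferation), 3 to 5 (senescence) and 1 to 2 (BCL2). No paired analysis was possible because the labels give the groups no shared replicate numbers. Cdkn1c and Gadd45b had too few reads to show a small change. Sex and day of collection were not used, since the labels do not give them for each mouse.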

Other observations

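Other genes around growth arrest moved in both directions. Of 17 tested FOXO genes and FOXO targets 2 rose and 5 fell, with a median log2 fold change of -0.14. Thus 41.2% passed, against 31.2% of all genes tested. Foxo1 rose from 420 ± 41.5 (SD, n = 3) to 722 ± 55.8 (SD, n = 4) normalized counts while Foxo3 fell from 747 ± 70.1 to 367 ± 7.72, and of the targets the autophagy gene Map1lc3b rose (1.63) and catalase, Cat, fell (-1.88). Of 14 glucocorticoid-responsive liver genes 3 rose and 2 fell (35.7%, near the 31.2% of all genes tested), with a median of 0.30. Fkbp5, a chaperone of the glucocorticoid receptor, rose (1.74) and Lcn2, which inflammation also induces, rose by far more (7.09), while the receptor gene Nr3c1 (-0.84) and its target Tsc22d3 (-1.05) fell.

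Of 9 tested genes on a senescence list 3 rose and 2 fell, with a median of 0.07. This list holds secretory genes and also Glb1, Lmnb1 and Hmgb2, which are not secretory genes. Of its tested genes 55.6% passed, against 31.2% of all genes tested. Cxcl1, a neutrophil chemokine, went from 42.8 ± 8.86 (SD, n = 3) to 1844 ± 401 (SD, n = 4) normalized counts. Il1a (-1.29) and Lmnb1, the gene of lamin B1 (-0.81), fell. Of 12 tested BCL2 family genes 1 rose, the proapoptotic gene Bad (1.07), with a median of 0.29. That is 8.33% of them, against 31.2% of all genes tested.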
